A study of Phycomyces blakesleeanus with 24 samples.

Results

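PPK2, PPK3, PPK5, PKC1 and PKC4, called kinases here by their symbols alone, are 5 genes of the fungus Phycomyces blakesleeanus among 14410 genes measured by RNA sequencing. They were matched by symbol, and they are all the genes with a PPK or PKC symbol among the 213 symbols of the gene table used. Their locus tags are PHYBLDRAFT_12696 for PPK2, PHYBLDRAFT_40771 for PPK3, PHYBLDRAFT_3063 for PPK5, PHYBLDRAFT_73263 for PKC1 and PHYBLDRAFT_3177 for PKC4. They were chosen by their earlier known values, since 4 of them had been seen to be called higher in light in wild type mycelium. The values of that comparison are therefore given as a description, and its calls, the authors' or recomputed, are not used as support. The light response was measured in mutant sporangiophores, mutant mycelium, wild type sporangiophores and wild type mycelium. The mutant strain, ΔL51, is labelled as a photoreceptors mutant with no allele named. Both strains grew on PDA, in light or in darkness, and mycelium and sporangiophores were sampled apart. The series listed 24 libraries, 3 in each of 8 groups, and 20 entered the study's analysis after 4 were set aside for their greater dispersion. The kept libraries were 3 light and 2 dark for mutant sporangiophores, 3 light and 3 dark for mutant mycelium, 2 light and 2 dark for wild type sporangiophores, and 3 light and 2 dark for wild type mycelium. Whether the replicates came from separate cultures is not stated beyond the word biological, and neither is the length of the light exposure.

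Protein kinase C in fungi is best known from budding yeast, where Pkc1 acts below the GTPase Rho1 and heads a mitogen-activated kinase cascade that maintains the cell wall. In the ascomycete Neurospora crassa, a protein kinase C has been described as a partner of the White Collar photoreceptor. The sources used here do not spell out PPK, so it is not established here that the PPK genes encode protein kinases. In fission yeast the same prefix numbers protein kinases that were recognised from the genome sequence, and whether the Phycomyces symbols follow that use is not stated. Mycelium is the network of feeding hyphae, and sporangiophores are the tall aerial hyphae that carry the spores and bend towards light.

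The authors' deposited tables, 1 for each comparison, list for every gene a log2 fold change of light over dark, an average log2 CPM (counts scaled to library size, averaged over the libraries of a fit), the likelihood ratio, its p-value and the FDR, a p-value adjusted over the table. Values per library were not analysed here, so the level of a kinase in light or in dark, its spread between replicates and the depth behind it are unknown. The labelled structures were not checked against marker genes, since a fold of light over dark gives no level of a marker in either structure. An approximate standard error (SE) was taken as the absolute log2 fold change divided by the square root of its likelihood ratio, and 95% intervals are built on it. In RNA from whole tissue, a change in the share of cells that hold a transcript and a change in the amount per cell cannot be told apart.

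The 3 PPK genes had their highest folds in wild type mycelium, and elsewhere the interval of each held 0. PPK2 had log2 fold changes of 0.02 in mutant sporangiophores, -0.02 in mutant mycelium, -0.20 in wild type sporangiophores and 5.82 in wild type mycelium in the authors' deposited tables. PPK3 had log2 fold changes of 0.05 in mutant sporangiophores, -0.81 in mutant mycelium, -0.04 in wild type sporangiophores and 4.01 in wild type mycelium in the authors' deposited tables. PPK5 had log2 fold changes of 0.10 in mutant sporangiophores, 0.22 in mutant mycelium, -0.37 in wild type sporangiophores and 3.81 in wild type mycelium in the authors' deposited tables. In wild type mycelium the folds of all 3 were at least 3.81 on the log2 scale, whereas across the other comparisons they lay between -0.81 and 0.22.

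PKC1 and PKC4, the protein kinase C genes by their symbols, also had their highest fold in wild type mycelium. PKC1 had log2 fold changes of 0.62 in mutant sporangiophores, 0.69 in mutant mycelium, -0.22 in wild type sporangiophores and 2.14 in wild type mycelium in the authors' deposited tables. PKC4 had log2 fold changes of 0.32 in mutant sporangiophores, 0.07 in mutant mycelium, -0.27 in wild type sporangiophores and 0.93 in wild type mycelium in the authors' deposited tables. The PKC1 fold was positive in both structures of the mutant and in wild type mycelium. PKC4 was not called in any of the 4 comparisons, and its smallest FDR was 0.623 in the authors' deposited tables, in mutant sporangiophores.

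**Figure D1:**
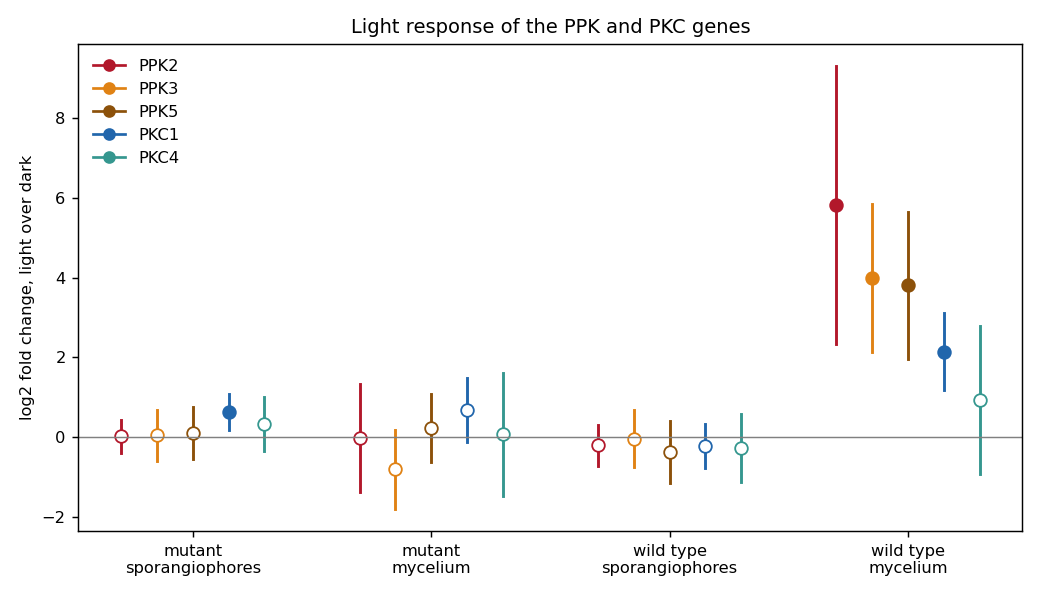
Log2 fold change of light over dark (vertical axis) for the 5 kinase genes in mutant sporangiophores, mutant mycelium, wild type sporangiophores and wild type mycelium, with approximate 95% intervals as lines. Filled points have an FDR under 0.05 in the authors' deposited tables, namely PKC1 in mutant sporangiophores (0.62) and PPK2, PPK3, PPK5 and PKC1 in wild type mycelium (5.82, 4.01, 3.81 and 2.14).

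In wild type mycelium, 4 of the 5 genes were called higher in light and 0 lower at an FDR under 0.05, against 9.86% of 14410 genes called higher and 4.18% called lower in the authors' deposited table. The genes had been picked with these calls in view, so nothing is read from that contrast of shares. With an F distribution in place of the chi-square, 3 stayed called if all 20 kept libraries entered the fit (12 residual degrees of freedom) and 0 if the mutant mycelium libraries did not (8 residual degrees of freedom, smallest adjusted p = 0.0620, for PKC1). The FDR in the authors' deposited table was 3.67e-04 for PKC1, 5.55e-04 for PPK3, 0.00104 for PPK5, 0.0118 for PPK2 and 0.624 for PKC4. In linear terms the folds of the authors' deposited table were 56.6 for PPK2, 16.1 for PPK3, 14.0 for PPK5, 4.40 for PKC1 and 1.90 for PKC4. PPK2, the gene with the highest fold, thus had the highest FDR of the 4 called. Its approximate interval ran from 2.33 to 9.31 on the log2 scale, while that of PKC1 ran from 1.17 to 3.11. PPK3 had an interval of 2.15 to 5.86, PPK5 1.96 to 5.66 and PKC4 -0.94 to 2.79. The intervals of PPK2, PPK3 and PPK5 overlapped one another widely, so their order was not resolved. That of PPK2 is rough, for a reason given below with the shared folds.

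By size of log2 fold change, PPK2 ranked 68 among the 14410 genes of the authors' deposited table for wild type mycelium, PPK3 ranked 414, PPK5 ranked 427, PKC1 ranked 2076 and PKC4 ranked 3931. The middle 90% of all genes spanned -1.64 to 3.73 there, so PPK2, PPK3 and PPK5 were above that span and PKC1 and PKC4 inside it. Its upper end lay beside 3.74, a fold shared by many genes as described below, so such genes weigh on the span and the ranks. Of the genes called, 67 had a larger rise than PPK2, 159 than PPK3, 172 than PPK5, 530 than PKC1 and 1335 than PKC4. The fold behind the rank of PPK2 may not be a measured size. Folds in this table leaned upward, with a median of 0.39 over the genes whose fold was not listed as 0. The genes with shared folds, described below, enter that median, and whether it reflects a shift of all genes was not tested. With the median subtracted the values were 5.44 for PPK2, 3.62 for PPK3, 3.42 for PPK5, 1.75 for PKC1 and 0.54 for PKC4. On the centred scale 907 genes were called higher and 1344 lower in wild type mycelium, where the authors' deposited table has 1421 higher and 603 lower, and the same 4 kinases were called higher.

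The fold of PPK2 in wild type mycelium fell on a value that other genes shared. Apart from the 3193 genes whose fold was listed as 0, many genes there shared one of a few log2 fold changes, and above 2 the most frequent were 2.85, 3.74, 4.29 and 4.69. In linear terms these are folds of 7.19, 13.4, 19.6 and 25.8, evenly spaced by 6.19. The spacing went on above them, with 133 genes within 0.01 (log2) of the whole steps from 5 to 12 and 2 genes within the same distance of the points midway between steps, from 5.5 to 12.5. Even steps of this kind are what whole numbers of reads in light against no reads in dark would give. PPK2 lay at step 8.98 and shared its fold, within 0.01 on the log2 scale, with 9 other genes, which is where 9 reads in light and none in dark would fall. The read counts themselves were not analysed. A fold fitted against a group without reads depends on the constant that the model adds. Whether PPK2 had no reads in dark was not seen, so 5.82 is not taken as a measure of its change.

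PPK3 lay at position 2.43 on the same scale, PPK5 at 2.10 and PKC1 at 0.55, each away from a whole step by at least 0.10. The folds of these 3 genes were not among the shared values of that kind, and 0 other genes lay within 0.01 of PPK3, 3 within 0.01 of PPK5 and 7 within 0.01 of PKC1. PKC4, at position 0.15, lay below the first step, and 70 other genes were within 0.01 of its fold of 0.93.

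**Figure D2:**
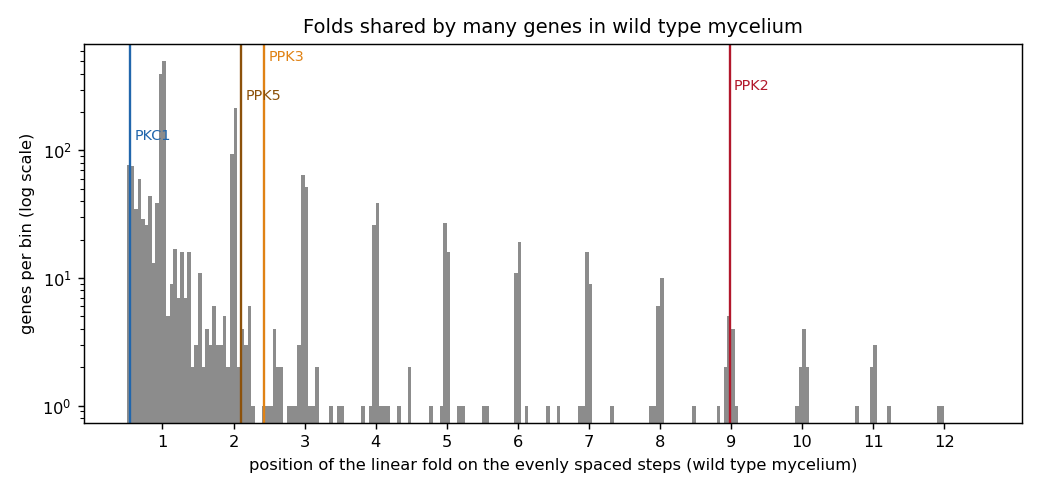
Number of genes (vertical axis, log scale) by the position of their linear fold on the evenly spaced steps in wild type mycelium (horizontal axis, 1 step being a fold of 6.19), with vertical lines at PPK2, PPK3, PPK5 and PKC1. Genes pile up at whole steps, PPK2 stands at the pile near step 9 (8.98), and PPK5 (2.10) and PPK3 (2.43) stand beside the pile at step 2.

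In mutant mycelium, the folds of the 3 PPK genes lay between -0.81 and 0.22 and the intervals of all 3 held 0. By the authors' edgeR test 0 of the 5 kinases were called (0 at an unadjusted p under 0.05, and 0 when an F distribution took the place of the chi-square), against 0.541% of 14242 genes called higher and 0.576% called lower in the authors' deposited table. The approximate intervals ran from -1.37 to 1.34 for PPK2, from -1.81 to 0.19 for PPK3 and from -0.64 to 1.08 for PPK5. The difference of the log2 fold changes, mutant mycelium minus wild type mycelium, was -4.82 ± 1.08 (approximate SE) for PPK3 and -3.59 ± 1.04 for PPK5. None is given for PPK2, since its fold in wild type mycelium may not measure such a size. For PKC1 the same difference was -1.45 ± 0.64 and for PKC4 it was -0.86 ± 1.24, against a median of -0.26 over 10462 genes with an SE in both tables. These differences rest on the comparison that chose the genes, so they were not tested.

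The lowest fold of any of the 5 genes was that of PPK3 in mutant mycelium, -0.81 with an FDR of 0.710 in the authors' deposited table. PKC1 had the highest fold of the 5 there, 0.69 with an interval of -0.12 to 1.49. Neither passed the threshold.

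In mutant sporangiophores, PKC1 rose in light by 0.62 on the log2 scale (1.54-fold, interval 0.17 to 1.08, FDR 0.0488) in the authors' deposited table. It was the 1 kinase of the 5 called higher, with 0 called lower, against 3.31% of 14410 genes called higher and 12.3% called lower in the authors' deposited table. The FDR lay just under the threshold of 0.05, and the call ended with the folds centred on their median (adjusted p = 0.0780) and with the F reference (adjusted p = 0.131 with 12 degrees of freedom and 0.183 with 8). Most called genes of this table were lower in light, and PKC1 had a fold above 81.2% of the genes. PPK2, PPK3 and PPK5 had intervals of -0.40 to 0.44, -0.60 to 0.69 and -0.55 to 0.74. PKC4 had an interval of -0.35 to 1.00. A rise of more than 2.11-fold lay outside the interval of every one of the 5 genes in mutant sporangiophores.

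In wild type sporangiophores, all 5 kinases had folds below 0 and none passed the threshold. By the authors' edgeR test 0 of 5 were called (0 at an unadjusted p under 0.05, and 0 with the F reference), against 7.23% of genes called higher and 1.18% called lower in the authors' deposited table. Their log2 fold changes lay between -0.37 and -0.04 with a median of -0.22, where all genes had a median of -0.05. The highest upper bound among them was 0.67, a 1.59-fold rise, and the lowest lower bound was -1.15, a 2.21-fold fall. The differences, wild type sporangiophores minus wild type mycelium, were -4.04 ± 1.02 (approximate SE) for PPK3, -4.18 ± 1.02 for PPK5, -2.36 ± 0.57 for PKC1 and -1.19 ± 1.05 for PKC4. These too were not tested, since they rest on the comparison that chose the genes, and none is given for PPK2.

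**Figure D3:**
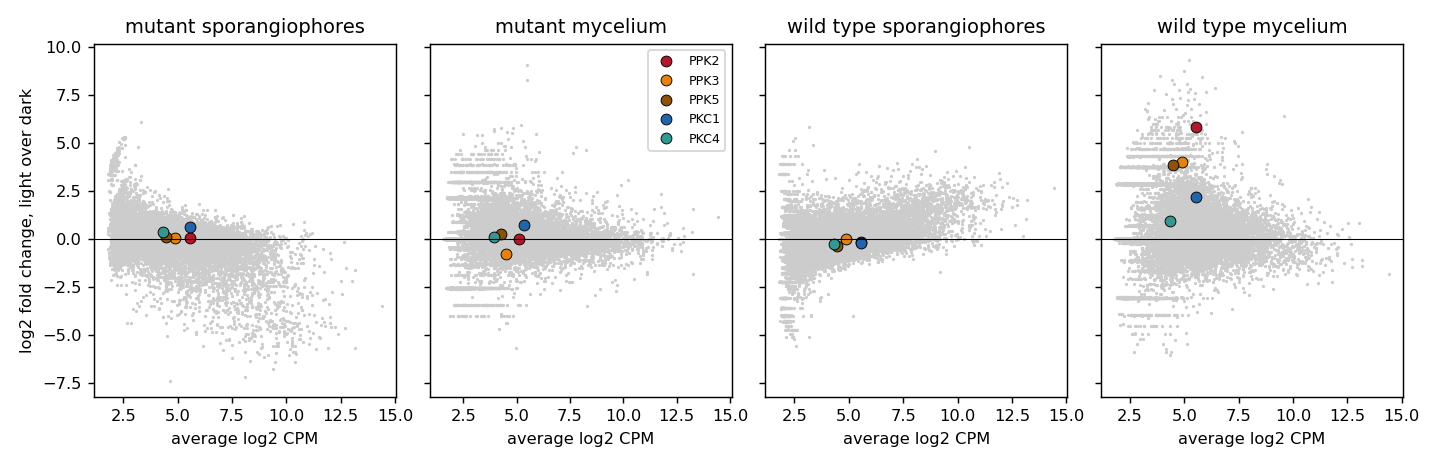
Log2 fold change of light over dark (vertical axis) against average log2 CPM (horizontal axis) for all genes (grey) and the 5 kinases (coloured), in mutant sporangiophores, mutant mycelium, wild type sporangiophores and wild type mycelium. PPK2, PPK3 and PPK5 stand above most genes in wild type mycelium (5.82, 4.01 and 3.81) and lie within the grey band in the others.

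Among the 3 comparisons that did not choose the genes, the light responses were set against each other with an approximate z test, adjusted over all genes with an SE in both tables. The test of mutant against wild type sporangiophores called 0 of the 5 kinases, where 19.6% of 14401 genes passed. PKC1 came closest, with a difference of 0.84 (interval 0.12 to 1.56, adjusted p = 0.0913), and was the 1 kinase with an unadjusted p under 0.05. The other 4 kinases had differences from 0.08 for PPK3 to 0.59 for PKC4, and those of all 5 were above 0. The intervals reached 0.88 for PPK2, 1.04 for PPK3, 1.48 for PPK5 and 1.68 for PKC4, so differences up to those sizes were not resolved.

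The response in mutant sporangiophores was also set against that in mutant mycelium. There the approximate z test called 0 of 5 kinases (0 at an unadjusted p under 0.05), where 11.9% of 11430 genes passed. PPK3 had the largest difference, 0.86 with an interval of -0.33 to 2.05, and PKC1 differed by -0.07 with an interval of -0.99 to 0.86. Between mutant mycelium and wild type sporangiophores the z test called 0 of 5 kinases (0 at an unadjusted p under 0.05), where 2.94% of 11427 genes passed. The largest difference there was that of PKC1, 0.91 with an interval of -0.07 to 1.89.

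The precision of a fold differed between the structures. For PPK2 the approximate SE was 0.21 in mutant sporangiophores, 0.69 in mutant mycelium, 0.26 in wild type sporangiophores and 1.78 in wild type mycelium. The SE of PPK2 was larger than that of 2.76% and 4.50% of genes in mutant and wild type sporangiophores, but larger than that of 64.0% and 82.3% of genes in mutant and wild type mycelium. PPK2 was thus among the most precisely measured genes in sporangiophores and among the less precise in mycelium. In wild type mycelium the SE of PPK2 is rough, since the fold there may not be a measured size. All 5 kinases had an SE below the median of all genes in both sporangiophore comparisons (0.39 in the mutant and 0.46 in the wild type). In mycelium 2 of the 5 were above the median of 0.56 in the mutant, and 4 of the 5 above 0.57 in the wild type.

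**Figure D4:**
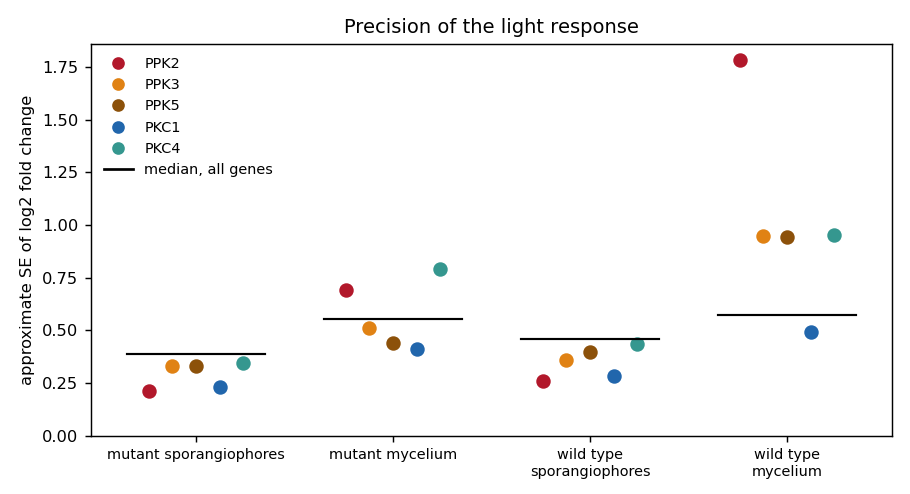
Approximate SE of the log2 fold change (vertical axis) of the 5 kinases, as points, with the median over all genes as a black line, in mutant sporangiophores, mutant mycelium, wild type sporangiophores and wild type mycelium. All points lie under the line in both sporangiophore comparisons, and PPK2 stands highest in wild type mycelium at 1.78.

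The average log2 CPM of each kinase also differed between the fits. The mutant mycelium table had values of its own, while the other 3 tables shared one value for each gene, so its fit was not theirs. PPK2 had an average log2 CPM of 5.12 in the authors' deposited table for mutant mycelium and 5.56 in the 3 others. PPK3 had 4.49 in the mutant mycelium table and 4.89 in the others, PPK5 had 4.28 in the mutant mycelium table and 4.47 in the others, and PKC1 had 5.33 in the mutant mycelium table and 5.55 in the others of the authors' deposited tables. PKC4 had 3.96 in the authors' deposited table for mutant mycelium and 4.32 in the others. These averages are not scaled to gene length, so they do not rank the 5 genes. The mutant mycelium value minus the other was between -0.43 (PPK2) and -0.19 (PPK5), against a median of -0.22 over 14162 shared genes. Which libraries entered each average is not given in the sources used here.

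Other kinase symbols were described alongside. A list of 15 symbols covered calmodulin-dependent kinases, catalytic subunits of the cAMP-dependent kinase, casein kinase 2 and YPK1. Of these, 0 were called higher and 4 lower in mutant sporangiophores, 1 higher and 0 lower in mutant mycelium, 2 higher and 0 lower in wild type sporangiophores, and 4 higher and 0 lower in wild type mycelium in the authors' deposited tables. Over all genes, 3.31% were called higher and 12.3% lower in mutant sporangiophores, and 0.541% and 0.576% in mutant mycelium. The shares were 7.23% and 1.18% in wild type sporangiophores, and 9.86% and 4.18% in wild type mycelium. The counts were not tested against these shares. The list of 15 had a median log2 fold change of -0.40 in mutant sporangiophores, 0.21 in mutant mycelium, 0.15 in wild type sporangiophores and 0.67 in wild type mycelium. The 5 PPK and PKC genes had medians of 0.10 in mutant sporangiophores, 0.07 in mutant mycelium, -0.22 in wild type sporangiophores and 3.81 in wild type mycelium, the comparison that chose them. All genes had medians of 0.05 in mutant sporangiophores, 0 in mutant mycelium, -0.05 in wild type sporangiophores and 0 in wild type mycelium. Over the genes whose fold was not listed as 0, the medians were 0.08 in mutant mycelium and 0.39 in wild type mycelium.

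CaMK7, a calmodulin-dependent kinase by its symbol, was the kinase outside the 5 with the highest fold in wild type mycelium. It had log2 fold changes of 0.05 in mutant sporangiophores, 1.82 in mutant mycelium, -0.06 in wild type sporangiophores and 3.93 in wild type mycelium in the authors' deposited tables. Its fold was called in mutant mycelium too (FDR 0.00438), where those of PPK2, PPK3, PPK5 and PKC1 were not called. Whether its difference between the strains is unlike that of the PPK genes was not tested.

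Casein kinase 2 is a constitutive kinase of a catalytic and a regulatory subunit. CK2A, its catalytic subunit by symbol, fell by 1.52 in mutant sporangiophores and rose by 1.68 in wild type sporangiophores, with folds of 0.05 in mutant mycelium and -0.16 in wild type mycelium in the authors' deposited tables. CK2B, its regulatory subunit by symbol, was called lower in mutant sporangiophores (-1.20, FDR 0.0118) and was not called in wild type sporangiophores (0.39, FDR 0.713), with folds of 0.53 in mutant mycelium and -0.30 in wild type mycelium in the authors' deposited tables. The approximate z test of mutant minus wild type sporangiophores passed for both, with a difference of -3.20 (interval -4.04 to -2.36, adjusted p = 3.01e-12) for CK2A and -1.58 (interval -2.69 to -0.48, adjusted p = 0.0289) for CK2B. PKC1 and the PPK genes did not pass the same test, as given above.

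The kinases nearest to PKC in kind are the other AGC kinases, the group named for the cAMP-dependent, cGMP-dependent and C kinases. Of 11 such symbols (catalytic subunits of the cAMP-dependent kinase, PKB1, PKB2, PKB4, YPK1 and RIM15), 1 was called higher in wild type mycelium and 0 lower in the authors' deposited table. That gene was pkaC2, with 0.89 and an FDR of 0.0191 in the authors' deposited table. Over all genes 9.86% were called higher and 4.18% lower in wild type mycelium. PKB1 had 2.11 there, close to the 2.14 of PKC1, but with an SE of 1.04 against 0.49 for PKC1 and an FDR of 0.184. In mutant sporangiophores 2 of the 11 were lower, YPK1 (-0.70) and pkaC9 (-1.24), and in mutant mycelium and wild type sporangiophores 0 of the 11 were called by the authors' edgeR test in the authors' deposited tables. Over all genes 12.3% were called lower in mutant sporangiophores.

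Over all 31 other kinase symbols, 6 were called higher and 0 lower in wild type mycelium in the authors' deposited table, namely CaMK10, CaMK2, CaMK7, PSK1, STKc and pkaC2. The authors' deposited tables called 0 higher and 4 lower in mutant sporangiophores, 1 higher and 0 lower in mutant mycelium, and 2 higher and 0 lower in wild type sporangiophores. Over all genes 9.86% were called higher in wild type mycelium and 12.3% lower in mutant sporangiophores. Shares called higher were also 0.541% in mutant mycelium and 7.23% in wild type sporangiophores. The counts were not tested against these shares. In wild type mycelium the 31 symbols had a median of 0.66 and a highest fold of 3.93. PPK2 and PPK3 had fitted folds above it, but that of PPK2 may not be a measured size, and PPK3 (4.01, SE 0.95) was not resolved from CaMK7 (3.93, SE 0.48). The 4 PkaR genes, regulatory subunits of the cAMP-dependent kinase, had a median of -0.28 there, with PkaR1 called lower (-0.83) in the authors' deposited table. PkaR4 had a fold of 4.29 there, the value of the third shared step, and was not called (FDR 0.226). In mutant sporangiophores PkaR2 was called higher (0.64), next to the 0.62 of PKC1, in the authors' deposited table.

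**Figure D5:**
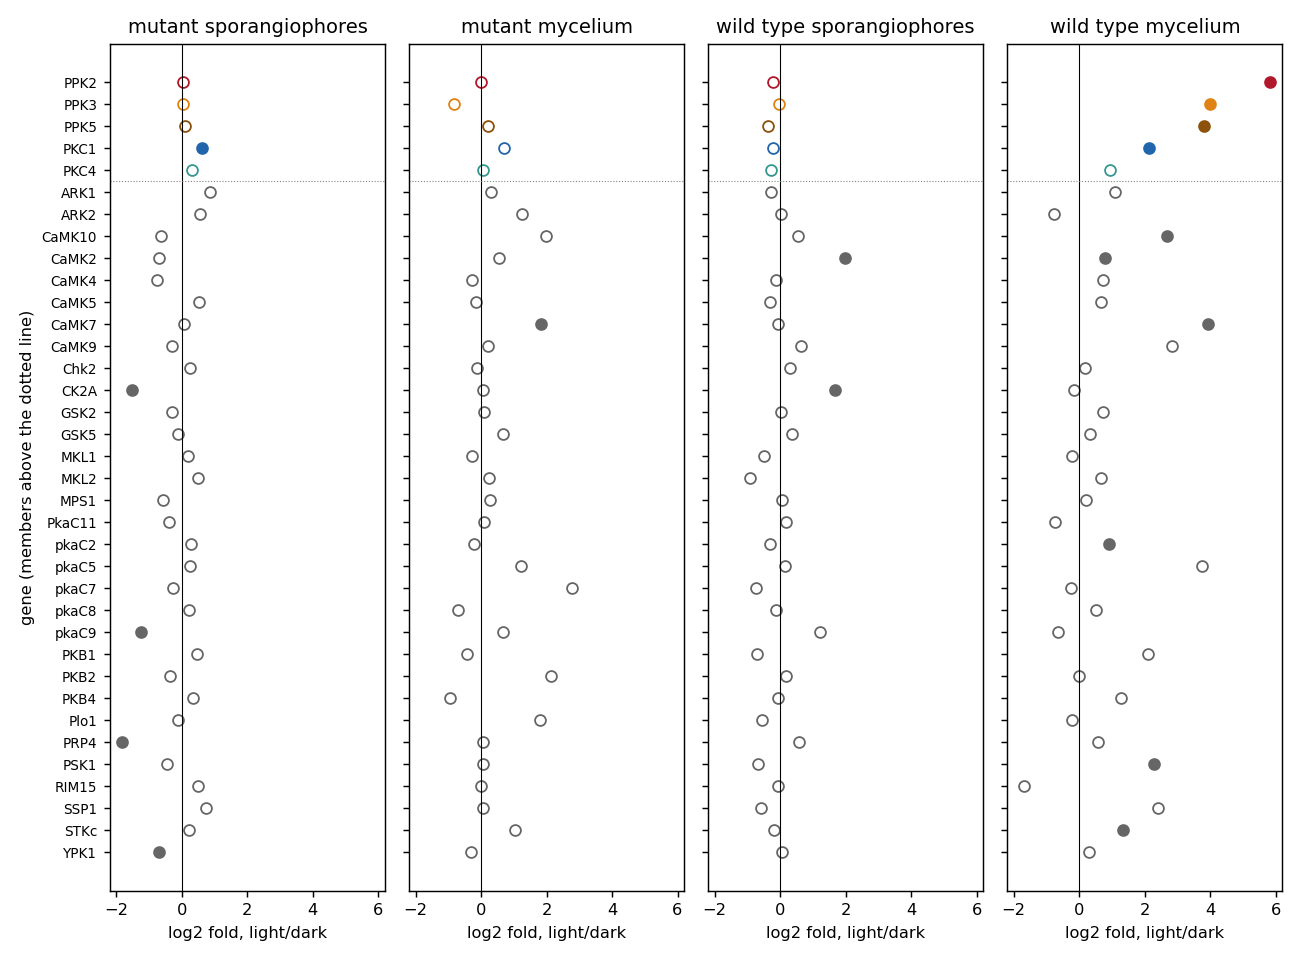
Log2 fold change of light over dark (horizontal axis) for the 5 PPK and PKC genes above the dotted line and 31 other kinase symbols below it, in mutant sporangiophores, mutant mycelium, wild type sporangiophores and wild type mycelium. Filled points have an FDR under 0.05 in the authors' deposited tables, and in wild type mycelium PPK2 (5.82) and PPK3 (4.01) lie beside CaMK7 (3.93), from which PPK3 was not resolved.

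Genes with a light response like that of each kinase were sought by the Euclidean distance between their 4 log2 fold changes, among the genes at or above the median log2 CPM of every table. Wild type mycelium, the comparison that chose the genes, enters every distance. The fold of PPK2 there may not be a measured size, so its distances are a description only. For PPK2 the nearest gene with a symbol was WcoA, a homolog of the White Collar photoreceptor, at a distance of 1.50 and rank 48 of 6958. WcoA had log2 fold changes of 0.26 in mutant sporangiophores, 0.58 in mutant mycelium, 1.04 in wild type sporangiophores and 5.28 in wild type mycelium in the authors' deposited tables. It was called higher in wild type sporangiophores (FDR 0.00334), where PPK2 was not called. Next came Gpb3, whose symbol is that of a beta subunit of a G protein, at 1.82, and the nearest gene of any kind was PHYBLDRAFT_153500 at 0.28.

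For PPK5 the nearest gene with a symbol was PPK3, at 1.10, followed by QCR1_3 at 1.27. PPK3 itself had QCR1_3 at 1.19 and PbFumHa, a fumarase by its symbol, at 1.95, with PPK5 outside the candidates because its log2 CPM was under the median. RdRP-1a, an RNA-dependent RNA polymerase, was nearest to PKC1 at 0.78, followed by STKc, another kinase by its symbol, at 0.95. For PKC4 the nearest were pkaC2 at 0.29 and HK_IB at 0.29. The nearest genes of any kind lay at 0.39 from PPK3, 0.24 from PPK5, 0.21 from PKC1 and 0.04 from PKC4. None of these was called in wild type mycelium in the authors' deposited table. The folds there were 4.29 (FDR 0.226) for the gene nearest to PPK3 and 3.74 (FDR 0.367) for that nearest to PPK5. Both values are among the shared steps. The genes nearest to PKC1 and PKC4 had FDRs of 0.292 and 0.194, while that nearest to PPK2 was called (FDR 0.00839). Each distance covers 4 comparisons, and the one that added most to it varied from pair to pair. Between PPK2 and WcoA it was wild type sporangiophores, with folds of -0.20 and 1.04 in the authors' deposited table, and between PPK5 and PPK3 it was mutant mycelium, with 0.22 and -0.81.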

How the data were processed

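Per the labels' protocols, Trizol RNA was amplified with MessageAmp II. Per the submitters' processing notes, the authors' tools were Bowtie and edgeR. Their versions, the genome build, the counting rule and the filters are not given in the sources used here. As the file headers name them, the authors' deposited tables give log2 fold changes, average log2 CPM, a likelihood ratio score, p-values and FDR, and they hold no values per library. Direction was taken from each table's title. Gene IDs were matched to the number in the locus tags of RefSeq assembly Phybl2 (14355 of 14410 matched, 208 with a symbol), and no coordinates or sequences are printed.

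The deposited p-values were checked against a chi-square tail and the FDR against Benjamini-Hochberg adjustment. SE, intervals, z tests of differences, distances and steps of shared folds were computed with Python 3.11.15, numpy 2.4.6, pandas 2.3.3 and scipy 1.17.1. The z test was tried on simulated counts at the levels of mutant sporangiophores, with a known dispersion. Comparisons with many folds listed as 0, such as those of mycelium, were not simulated. The SE of a gene with few reads is rough. Alternatives were a centring, an F reference with 12 degrees of freedom (20 kept libraries in 8 groups, as if all entered each fit), a running median over 301 genes of similar log2 CPM, a low CPM filter, an FDR of 0.01 and a minimum log2 fold change of 1. An F reference for separate fits (4 degrees of freedom for mutant mycelium, 8 for the other tables) was added after seeing the data. The members and lists were chosen with earlier results of these data known. Always named were the 5 members and, for each, the 2 nearest genes with a symbol and the nearest of any kind. Other names, the AGC and 31-symbol lists and the steps of shared folds were chosen after values were seen.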

Additional observations from a re-analysis of the deposited data

How the results depend on the processing

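No paired analysis was possible because the deposited tables hold no values per library, and for the same reason leaving out replicates and putting back the 4 libraries set aside were not run. In wild type mycelium 4 kinases were called under 4 alternatives and 3 with the F reference (PPK2 adjusted p = 0.0736) and at an FDR of 0.01. The genes were chosen on that comparison, so these counts describe the dependence on the setting and are not support. With the F reference at 8 residual degrees of freedom, chosen after seeing the data, 0 were called there, with adjusted p of 0.0620 for PKC1, 0.0664 for PPK3, 0.0734 for PPK5 and 0.125 for PPK2. The mutant mycelium table had average log2 CPM unlike the values shared by the other 3 tables. A single fit behind all 4 tables therefore does not match them. Whether the mutant mycelium libraries also entered the shared fit of the other 3 tables is not known. With them that fit would leave 12 residual degrees of freedom, under which 3 were called. Without them it would leave 8, under which 0 were called. Which applies is not settled, so the calls in wild type mycelium are not taken to hold under an F reference. In mutant sporangiophores the count of 1, PKC1, held with the trend taken out and with low genes left out. It was 0 after centring, with either F reference, at an FDR of 0.01 and with a log2 fold change of at least 1. Counts of 0 in the other comparisons, and in the 3 tested differences, were 0 under every alternative run. The F references, the threshold of 0.01 and the minimum fold can only take calls away. Only centring, the trend and the low CPM filter could have changed these counts.

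Signs turned for 7 values of light responses and 3 of differences, none of them called. In mutant sporangiophores PPK2 turned to -0.030 and PPK3 to -0.0015 after centring, and PPK3 to -0.016 with the trend taken out. In mutant mycelium PKC4 turned to -0.018 after centring and to -0.085 with the trend taken out. In wild type sporangiophores PPK3 turned to 0.014 and 0.029 under the same alternatives. The difference of mutant sporangiophores and mutant mycelium turned to 0.063 for PKC1 with the trend taken out. That of mutant and wild type sporangiophores turned to -0.016 after centring and -0.045 with the trend taken out for PPK3. The cause was not tested. The depth is unknown, and in wild type mycelium the genes were chosen on the values given.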
